A study of Homo sapiens with 12 samples.

Results

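The genes described here encode protein subunits of the oxidative phosphorylation system, 59 in all: 13 genes of the mitochondrial genome and 46 nuclear genes, out of 20036 genes in the expression table. They were chosen by name, as known subunits of these complexes, with earlier results of these data known. The mitochondrial genome contributed 7 members to complex I, 1 to complex III, 3 to complex IV and 2 to complex V. The nuclear genome contributed 16 members to complex I, 4 to complex II, 7 to complex III, 10 to complex IV, 8 to complex V and the electron carrier cytochrome c (CYCS). Expression was measured by RNA sequencing of total RNA from MV-4-11 cells, a human acute myeloid leukaemia line of bone marrow origin that is labelled wild type. There were 4 groups of 3 libraries: crenolanib together with (1R,3S)-HPA-12 (combination), crenolanib alone, (1R,3S)-HPA-12 alone, and DMSO. The 3 treated groups were labelled 48 h, no time was given for DMSO, and no dose was given. Crenolanib inhibits the receptor tyrosine kinase FLT3, and HPA-12 inhibits the ceramide transfer protein CERT. The wild-type label is repeated as deposited and is not a statement about FLT3, whose sequence in these cells was not examined here. Nothing in the labels ties the 3 libraries of each group to independent cultures, and p-values therefore rest on library-to-library spread that could be purely technical.

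Complexes I to IV carry electrons from NADH and succinate to oxygen. Complexes I, III and IV pump protons across the inner mitochondrial membrane, and complex V uses the resulting gradient to make ATP. Human mitochondrial DNA is transcribed by its own polymerase, POLRMT, from promoters on both strands into long precursors that are cut at transfer RNAs into single or paired messenger RNAs. All of complex II is encoded in the nucleus, whereas complexes I, III, IV and V each hold subunits of both genomes, so that each needs transcripts made in both compartments. The nuclear subunit genes are scattered over many chromosomes and are commonly controlled by the factors NRF1, the ETS-family factor GABP and YY1.

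Among the mitochondrial genes, 2 pairs have the longest overlaps of reading frames on the same strand, which limits how reads can be assigned between the partners. The stretches are shown because the members with the lowest fold changes or largest spread among the mitochondrial genes, MT-ND4L and MT-ATP8, belong to these pairs. Capitals mark the 46 bases shared by MT-ATP8 and MT-ATP6 (chrM:8527-8572, plus strand) and the 7 bases shared by MT-ND4L and MT-ND4 (chrM:10760-10766, plus strand) in GRCh38, with 15 bases on each side.
MT-ATP8/MT-ATP6: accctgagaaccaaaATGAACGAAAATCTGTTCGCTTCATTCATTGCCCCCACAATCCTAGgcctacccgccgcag
MT-ND4L/MT-ND4: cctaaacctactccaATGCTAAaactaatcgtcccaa
The overlap took up a large part of MT-ATP8, which is 207 bases long, and a small part of MT-ND4L, which is 297 bases long. MT-ATP6 (681 bases) and MT-ND4 (1378 bases) are the longer partners. In the annotation MT-ATP6 also overlaps MT-CO3, over 0.128% of the bases of MT-CO3, which is not shown.

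Promoter windows of 4 nuclear members named below are shown from RefSeq (GRCh38.p14), each a window around an annotated transcription start. Capitals mark an NRF1 motif (GCATGCGC) in CYCS (chr7:25125211-25125510, minus strand), an E-box (CACGTG, the motif bound by MYC and related factors) in ATP5MC1 (chr17:48892537-48892836, plus strand), a YY1 motif (AAGATGGCG) in UQCRC1 (chr3:48609597-48609896, minus strand) and the reverse complement of an ETS motif (CCGGAAG) in NDUFA1 (chrX:119871582-119871881, plus strand).
CYCS: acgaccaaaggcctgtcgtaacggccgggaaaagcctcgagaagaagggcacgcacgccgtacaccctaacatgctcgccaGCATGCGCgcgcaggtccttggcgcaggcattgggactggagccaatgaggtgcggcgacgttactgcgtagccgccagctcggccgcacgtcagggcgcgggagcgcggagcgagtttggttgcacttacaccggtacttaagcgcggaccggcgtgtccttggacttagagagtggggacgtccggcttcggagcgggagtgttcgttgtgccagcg
ATP5MC1: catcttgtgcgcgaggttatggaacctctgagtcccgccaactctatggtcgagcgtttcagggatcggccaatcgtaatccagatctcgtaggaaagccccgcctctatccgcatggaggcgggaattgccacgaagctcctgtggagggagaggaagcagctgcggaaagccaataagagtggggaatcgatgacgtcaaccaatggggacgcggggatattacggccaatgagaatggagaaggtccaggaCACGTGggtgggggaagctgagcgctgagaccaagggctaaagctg
UQCRC1: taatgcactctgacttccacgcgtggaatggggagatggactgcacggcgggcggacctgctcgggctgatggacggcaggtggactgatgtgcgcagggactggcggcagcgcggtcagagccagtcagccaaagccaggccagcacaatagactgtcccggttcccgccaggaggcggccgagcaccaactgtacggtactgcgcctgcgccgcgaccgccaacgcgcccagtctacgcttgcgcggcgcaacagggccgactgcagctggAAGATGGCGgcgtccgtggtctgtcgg
NDUFA1: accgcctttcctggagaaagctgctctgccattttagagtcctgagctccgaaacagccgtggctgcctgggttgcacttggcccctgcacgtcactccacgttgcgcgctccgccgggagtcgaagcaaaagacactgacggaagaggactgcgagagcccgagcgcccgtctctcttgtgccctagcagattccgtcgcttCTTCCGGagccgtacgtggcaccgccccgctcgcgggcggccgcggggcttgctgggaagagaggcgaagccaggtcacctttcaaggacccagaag
Windows were present for 36 of the 46 nuclear members, 40 windows in all. On either strand, the NRF1 motif was found in 8 of these windows (20%), against 3.05% of all 35116 windows in the table. The ETS motif was found in 13 (32.5% against 10.3%), the YY1 motif in 5 (12.5% against 1.75%) and the E-box in 3 (7.5% against 7.26%). No motif is contained in another, CACGTG reads the same on both strands, and a match describes the letters of a window and not binding. The 4 windows shown each hold a match, whereas those of some other members, such as COX5A, COX7C and NDUFB10, hold none of the 4 motifs. Whether a motif bears on the response of a gene was not tested.

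The files give normalised expression as FPKM, fragments scaled to the length of the gene in kilobases and to the mapped total of the library. The 13 mitochondrial genes held 61.6% to 62.6% of the FPKM sum in the combination libraries, 35.9% to 36.2% with crenolanib, 21.1% to 22.1% with HPA-12 and 19.6% to 20.003% with DMSO. Values in a library share one total of mapped fragments, so a larger mitochondrial part of the fragments lowers every other value. Estimated with annotated gene lengths, that part was 31.7% to 32.5% in the combination and 11.4% to 11.5% with crenolanib. It was 5.62% to 5.99% with HPA-12 and 5.49% to 5.765% with DMSO. The FPKM sum is not fixed, averaging 497316 in the combination and 258315 with DMSO. Shares of that sum thus overstate how far other values are lowered. The median log2 fold change over all 11149 tested genes against DMSO was −0.62 in the combination, −0.04 with crenolanib and 0.09 with HPA-12, and every result was also computed under 4 other scalings of the libraries. Estimated depth was 4.40 to 5.07 M fragments in the combination, 10.1 to 10.2 M with crenolanib, 12.1 to 12.8 M with HPA-12 and 13.6 to 15.98 M with DMSO, and 7894 to 8049, 4873 to 4995, 4792 to 4864 and 5137 to 5217 genes were listed at 0 in these groups.

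Markers of the labelled cell type were present. The 12 myeloid leukaemia markers summed to 340 to 364 FPKM in the combination, 802 to 812 with crenolanib, 744 to 754 with HPA-12 and 935 to 948 with DMSO, and none was at 0 in all 3 libraries of a group. The 16 erythroid markers summed to 27635 to 28112 FPKM in the combination, 4391 to 4667 with crenolanib, 219 to 226 with HPA-12 and 78.9 to 85.8 with DMSO. Of these 16, the group mean reached 1 FPKM for 16, 15, 9 and 4 genes, and 0, 0, 2 and 1 gene were at 0 in all 3 libraries, in the same order of groups. The 7 lymphoid markers summed to at most 8.14 FPKM and the 7 stromal and epithelial markers to at most 65.8 FPKM, the highest of each with HPA-12. Most of the latter sum with HPA-12 came from 1 gene, PECAM1, at 57.1 to 60.6 FPKM. The erythroid sum was highest in the combination and second highest with crenolanib, as the mitochondrial genes below were. With HPA-12 the erythroid sum stood above DMSO. The mitochondrial genes held 21.1% to 22.1% of the FPKM sum with HPA-12 and 19.6% to 20.003% with DMSO. Their mean log2 value as deposited was 11.21 in both groups. The part of erythroid genes in the mitochondrial results was not tested. In bulk RNA a change in the mix of cells and a change in RNA per cell cannot be told apart.

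All 13 mitochondrial members rose in the combination relative to DMSO. Their log2 fold changes ranged from 1.64 to 3.59 with a median of 2.64 (limma, Benjamini-Hochberg adjusted p at most 0.05 as the threshold), where 14.8% of all tested genes were raised and 56.5% lowered. With crenolanib all 13 rose as well, by 0.77 to 1.70 with a median of 1.16, against a background of 27.4% raised and 28.9% lowered. With HPA-12 alone the 13 genes split: 4 rose, 4 fell and 5 did not pass, with a median of 0.02, against 27.7% raised and 23% lowered among all tested genes. With the non-mitochondrial FPKM sum held equal, 7 rose and 3 fell with HPA-12, beside 32% raised and 20% lowered among all tested genes. The calls with the combination and with crenolanib held under all 4 other scalings, where the medians ran from 2.78 to 3.44 and from 1.17 to 1.32. For all 13 genes the combination libraries lay wholly above the DMSO libraries, as they did for 15.1% of all tested genes.

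**Figure D1:**
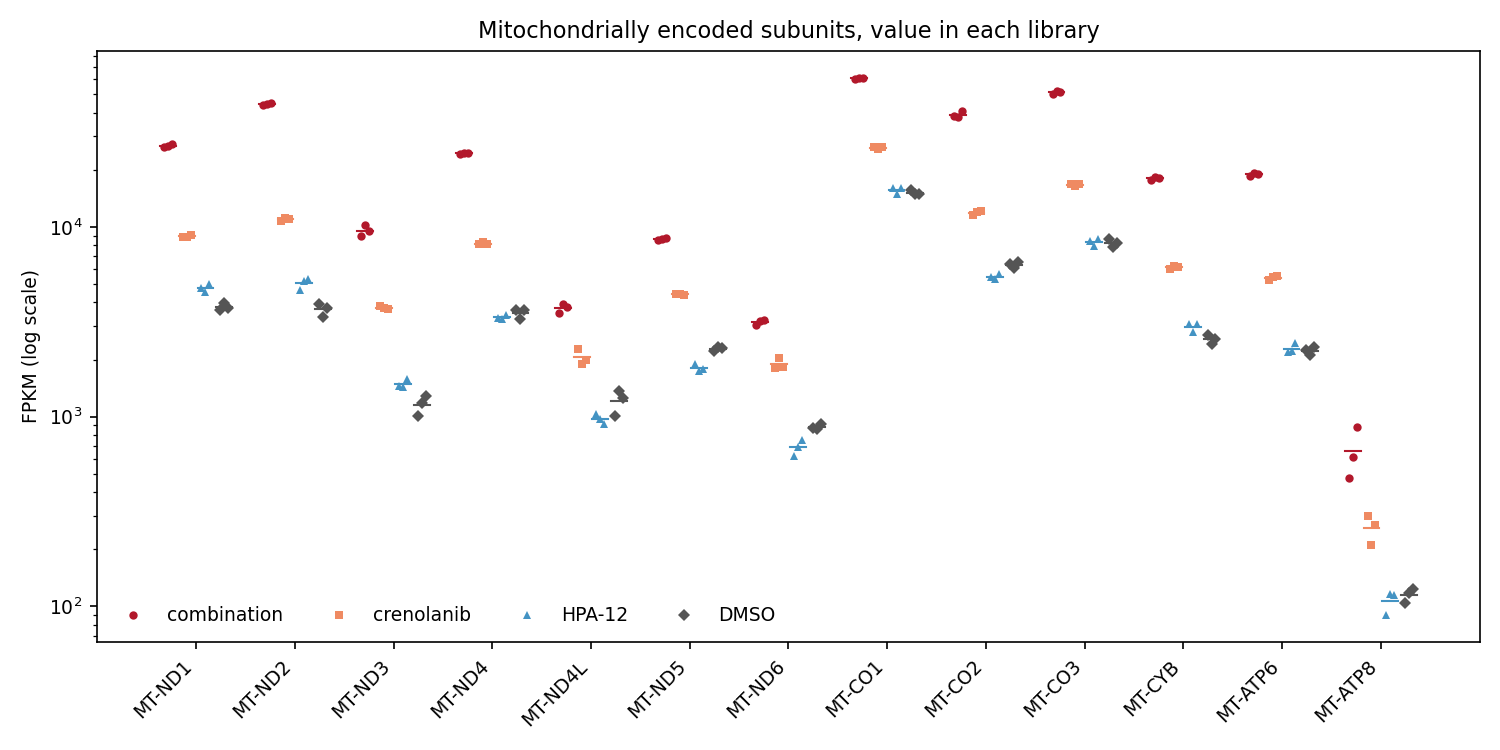
FPKM (log axis) of the 13 mitochondrially encoded subunit genes in each library, with combination, crenolanib, HPA-12 and DMSO from left to right within each gene and a bar at the mean of 3 libraries. Every gene is highest in the combination and second highest with crenolanib, while HPA-12 and DMSO lie close together.

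Complex I, the NADH dehydrogenase, receives its hydrophobic membrane core from the mitochondrial genome. MT-ND2, one of the proton-pumping subunits, had 43728, 44248 and 44829 FPKM in the combination, 10764, 11092 and 11052 with crenolanib, 4663, 5196 and 5311 with HPA-12 and 3914, 3368 and 3761 with DMSO. The 4 groups did not overlap, and MT-ND2 had the largest rise of the 13 genes in the combination, by 3.59 ± 0.05 on the log2 scale (SE, adjusted p = 2.2e-13), with rises of 1.58 with crenolanib (8.8e-10) and 0.46 with HPA-12 (3.1e-05). MT-ND1, which lies next to it and forms part of the quinone site, had 26287, 26734 and 27354 FPKM in the combination, 8858, 8832 and 9064 with crenolanib, 4789, 4536 and 4987 with HPA-12 and 3644, 3966 and 3747 with DMSO. It rose by 2.82 ± 0.04 (8.8e-14), 1.24 (3.1e-10) and 0.33 (1.9e-05), again without overlap between groups. MT-ND3 had 8913, 10209.7 and 9515 FPKM in the combination, 3828, 3732 and 3685 with crenolanib, 1443, 1428 and 1585 with HPA-12 and 1008, 1185 and 1280 with DMSO. It rose most of the 13 with crenolanib, by 1.70 ± 0.08 (1e-08), and by 3.05 in the combination (2.3e-11) and 0.36 with HPA-12 (0.0021).

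Other members of complex I did not follow this order under HPA-12. MT-ND5, a proton-pumping subunit of the membrane arm, had 8561, 8635 and 8771 FPKM in the combination, 4441, 4433 and 4393.5 with crenolanib, 1887, 1741 and 1781 with HPA-12 and 2220, 2333 and 2298 with DMSO. It rose by 1.92 ± 0.03 (adjusted p = 3.4e-13) and 0.95 (4.7e-10) in the first 2 of these groups and fell by 0.34 on the log2 scale with HPA-12 (3.4e-06), whose libraries lay wholly below DMSO. MT-ND6, the one protein gene read from the other strand, had 3052, 3190.04 and 3241 FPKM in the combination, 1798, 2044 and 1835 with crenolanib, 620, 691 and 753 with HPA-12 and 876, 856 and 913 with DMSO. Its rises were 1.84 ± 0.07 (5.3e-10) and 1.10 (1.2e-07), and it fell by 0.36 with HPA-12 (7.9e-04), also without overlap with DMSO. MT-ND4 averaged 24449 ± 274 FPKM in the combination, 8170.5 ± 119 with crenolanib, 3344 ± 84.3 with HPA-12 and 3527 ± 213 with DMSO (SD, n = 3 each), with log2 fold changes of 2.79 and 1.21 that passed and −0.08 with HPA-12 that did not (0.12). MT-ND4L averaged 3746 ± 206, 2055 ± 197, 972 ± 62.5 and 1209 ± 182 FPKM in the combination, crenolanib, HPA-12 and DMSO libraries (SD, n = 3 each). Its rises of 1.64 ± 0.10 and 0.77 were the smallest of the 13, and its fall of 0.31 with HPA-12 (0.025) did not pass under the non-mitochondrial FPKM sum or upper-quartile scaling, or without HPA-12 replicate 2 or 3 or DMSO replicate 2 or 3.

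MT-CYB, the cytochrome b that forms the catalytic core of complex III, had 17677, 18434 and 18142 FPKM in the combination, 6032, 6202 and 6169.9 with crenolanib, 3074, 2811 and 3075 with HPA-12 and 2696, 2428 and 2563 with DMSO. No 2 groups overlapped, and it rose by 2.82 ± 0.04 (adjusted p = 2e-13), 1.26 (6.3e-10) and 0.22 (0.0010). In complex IV, cytochrome c oxidase, MT-CO1 carries the haem and copper centre that reduces oxygen. MT-CO1 had 60416, 60973 and 61272 FPKM in the combination, 26285, 25658 and 26337 with crenolanib, 16043, 14943 and 15976 with HPA-12 and 15636, 14991 and 14833 with DMSO. It was the highest of the 13 per length in every group, rose by 2.01 ± 0.03 (1.5e-13) and 0.78 (1.3e-09), and had a log2 fold change of 0.05 with HPA-12 (0.20), whose libraries overlapped those of DMSO. MT-CO2, which receives electrons from cytochrome c, averaged 39024 ± 1438, 11865 ± 327, 5460.5 ± 172 and 6323 ± 258 FPKM in the combination, crenolanib, HPA-12 and DMSO libraries (SD, n = 3 each), rising by 2.63 and 0.91 and falling by 0.21 with HPA-12 (5.8e-04). MT-CO3 averaged 51209 ± 794, 16674 ± 184, 8340.3 ± 383 and 8240.7 ± 432 FPKM in the same order, with rises of 2.64 and 1.02 and a log2 fold change of 0.02 with HPA-12 (0.73).

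Of the complex V genes, MT-ATP6 encodes the proton-channel subunit a, and it averaged 18913 ± 316 FPKM in the combination, 5403 ± 154 with crenolanib, 2287 ± 134 with HPA-12 and 2229 ± 118 with DMSO (SD, n = 3 each). It rose by 3.09 ± 0.05 (adjusted p = 2e-13) and 1.28 (1.2e-09), and the value with HPA-12 was 0.04 (0.53). MT-ATP8, a small membrane subunit, had 478, 616 and 881 FPKM in the combination, 300.03, 210.5 and 270.1 with crenolanib, 89.8, 116 and 115 with HPA-12 and 105, 117 and 124 with DMSO. It was the lowest of the 13 per length and the most variable within the combination, and it rose by 2.46 ± 0.20 (4e-07) and 1.16 (4.1e-04), with −0.11 under HPA-12 (0.66).

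The measured rise was unequal among the 13. It can be read within a library as each gene's share of the mitochondrial FPKM sum and so does not depend on the scaling. MT-ND2 held 14.3% ± 0.0695 of that sum in the combination, 10.3% ± 0.150 with crenolanib, 9.55% ± 0.701 with HPA-12 and 7.19% ± 0.393 with DMSO (SD, n = 3 each). MT-CO1 went the other way, with 19.7% ± 0.166, 24.5% ± 0.313, 29.6% ± 0.578 and 29.6% ± 0.720 in the same order. The share of MT-ATP6 was 6.11%, 5.07%, 4.32% and 4.36%, and that of MT-ND6 was 1.02%, 1.77%, 1.30% and 1.72%. MT-CO3 varied less, at 16.6%, 15.6%, 15.7% and 16.1%. Between the 2 members that share 7 bases, MT-ND4L stood at 15.3% ± 0.708 of the FPKM of MT-ND4 in the combination, 25.2% ± 2.66 with crenolanib, 29.1% ± 2.40 with HPA-12 and 34.5% ± 6.98 with DMSO, and the combination libraries lay wholly below all others. Between the 2 that share 46 bases, MT-ATP8 stood at 2.57%, 3.21% and 4.64% of MT-ATP6 in the combination and 4.64%, 5.59% and 5.30% with DMSO. The combination value of 4.637% lay just below the lowest DMSO value of 4.641%. These shares are descriptions without a test, and the treatment of reads in shared bases by the authors is not given in these sources. MT-ATP8 (207 bases) and MT-ND4L (297 bases) are also the shortest of the 13 genes, and the shared bases are 2.36% of MT-ND4L. Whether the lower ratios reflect the measurement of short genes or the transcripts themselves was not tested.

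More nuclear members fell than rose with each treatment, as deposited and under the 4 other scalings. In the combination 4 of the 43 nuclear members tested rose and 26 fell relative to DMSO (9.3% and 60.5%, beside 14.8% and 56.5% of all tested genes), with a median of −0.57 beside −0.62 over all tested genes, so this count lay close to the background. With crenolanib 2 rose and 24 fell (4.65% and 55.8%, beside 27.4% and 28.9%), with a median of −0.48 beside −0.04. With HPA-12 1 rose and 26 fell (2.33% and 60.5%, beside 27.7% and 23%), with a median of −0.49 beside 0.09. The split in the combination depended on the scaling, as did its background. It was 5 raised and 25 lowered with the non-mitochondrial FPKM sum held equal (16.7% and 52.4% of all tested genes) and 9 and 16 with non-mitochondrial fragments held equal (22.2% and 41.4%). It was 10 and 15 with median-ratio factors (27.2% and 33.9%) and 12 and 14 with the upper quartile held equal (29.6% and 30.6%), so that the nuclear members stayed close to the background on each scale. Those with crenolanib stayed at 1 or 2 raised and 22 to 24 lowered, and those with HPA-12 at 1 or 2 raised and 23 to 26 lowered, where at least 23.8% of all tested genes were raised and at most 28.9% lowered. The number raised was 7 in the combination without its replicate 3. With crenolanib it was 4 without combination replicate 3 and 1 without crenolanib replicate 1 or 2, HPA-12 replicate 1 or any 1 DMSO library, and with HPA-12 it was 2 without any 1 combination library. Under all 5 scalings, 4 rose and 14 fell in the combination, 1 rose and 22 fell with crenolanib, and 1 rose and 23 fell with HPA-12. Relative to the deposited scale, the fold changes of the 43 nuclear members in the combination moved up by 0.11 to 0.69 with median-ratio factors (median 0.67) and by 0.13 to 0.80 at equal upper quartiles (median 0.77), so that falls given below for the combination are smaller and rises larger on those scales. The median shift with crenolanib was at most 0.16 under any scaling, and with HPA-12 at most 0.11.

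**Figure D2:**
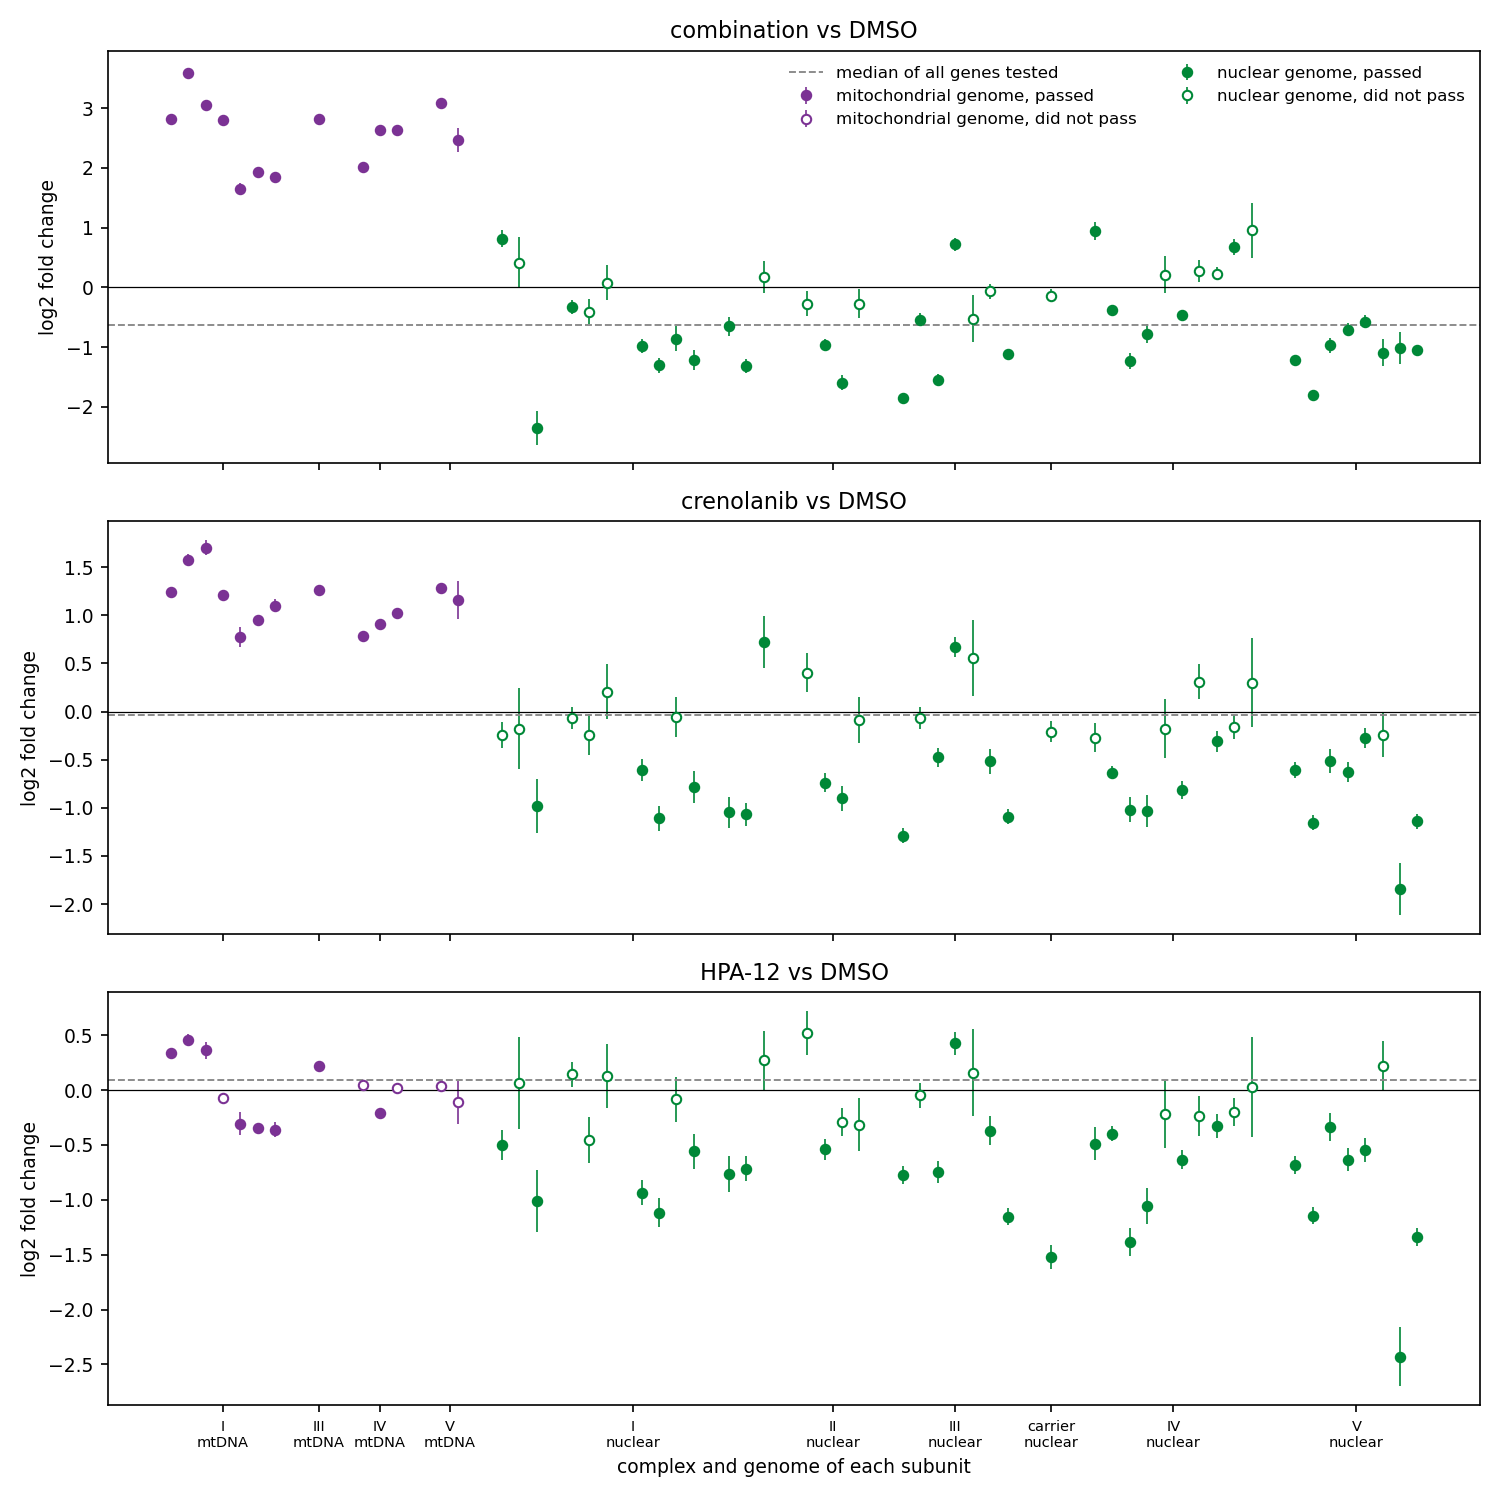
Log2 fold change on the log2(FPKM + 1) scale of each tested member relative to DMSO for the combination, crenolanib and HPA-12, arranged by complex and genome, with bars of 1 SE and a line at the median of all tested genes. The mitochondrial members lie above 0 in the combination and with crenolanib, and most nuclear members of complex V lie below 0 with each treatment.

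Nuclear complex I holds the iron-sulphur and flavin core and many accessory subunits, and 13 of its 16 members were tested. In the combination 1 rose and 8 fell, with crenolanib 1 rose and 6 fell, and with HPA-12 none rose and 7 fell. The medians were −0.65, −0.25 and −0.50. Among all tested genes 14.8% rose and 56.5% fell in the combination, 27.4% and 28.9% with crenolanib, and 27.7% and 23% with HPA-12. The falls in the combination were thus near the share of all genes. The combination count was 1 and 5 with median-ratio factors (27.2% and 33.9% of all tested genes) or equal non-mitochondrial fragments (22.2% and 41.4%). It was 2 and 5 at equal upper quartiles (29.6% and 30.6%). NDUFA1, a small accessory subunit, had 102, 91.8 and 95.5 FPKM in the combination, 39.4, 57.7 and 41.8 with crenolanib, 36.1, 39.2 and 39.2 with HPA-12 and 47.7, 52.2 and 64.4 with DMSO. The combination lay wholly above all other groups, a rise of 0.82 ± 0.14 (adjusted p = 2.1e-04), whereas the value with crenolanib was −0.25 (0.15) and HPA-12 gave a fall of 0.50 (0.0098). Its exons overlap those of the neighbouring gene RNF113A over 44.5% of their bases in GENCODE 29, so the level is uncertain. NDUFA4, first described as a complex I subunit and since assigned to complex IV, had 41.2, 55.9 and 36.1 FPKM in the combination, 16.2, 17.4 and 21.6 with crenolanib, 15.6, 15.3 and 15.8 with HPA-12 and 22.4, 20.1 and 24.5 with DMSO. It rose by 0.94 ± 0.15 in the combination (1.4e-04), with −0.27 under crenolanib (0.15) and a fall of 0.49 with HPA-12 (0.018) that did not pass without HPA-12 replicate 2 or DMSO replicate 3.

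Among the members that fell, NDUFA8, an accessory subunit of the intermembrane side, had 9.33, 7.36 and 21.9 FPKM in the combination, 30.8, 31.7 and 31.9 with crenolanib, 34.2, 25.5 and 33.4 with HPA-12 and 62.6, 60.0 and 66.7 with DMSO. All treated libraries lay below DMSO, with falls of 2.35 ± 0.28 (adjusted p = 1.2e-05), 0.98 (0.011) and 1.01 (0.010). Its SD was 7.89 FPKM in the combination and 0.601 with crenolanib, whereas the model shared a single spread between the groups. The SE here can thus understate the spread of the combination and overstate that of crenolanib. NDUFB10, a membrane-arm subunit, had 61.8, 48.4 and 41.2 FPKM in the combination, 49.4, 65.9 and 57.3 with crenolanib, 56.8, 57.0 and 56.8 with HPA-12 and 117, 124 and 133 with DMSO. The 3 treated groups overlapped one another, and the falls were 1.31 ± 0.13 (3.1e-06), 1.11 (2.8e-05) and 1.12 (3e-05). With median-ratio factors its combination value was −0.62, and it still passed (0.0017). NDUFV2, an iron-sulphur subunit, was near the detection limit at 0.587, 1.26, 0.650 and 0.357 FPKM on average in the combination, crenolanib, HPA-12 and DMSO libraries. Its rise with crenolanib, 0.72 ± 0.27 (0.037), passed under the non-mitochondrial FPKM sum scaling but not under the other 3. That rise also missed the threshold in 6 of the fits that left out 1 library, at 0.57 and 0.71 without crenolanib replicate 1 or 2, 0.72 without HPA-12 replicate 1, and 0.64, 0.80 and 0.72 without DMSO replicate 1, 2 or 3. NDUFA9, NDUFB8 and NDUFS7 did not reach 1 FPKM in 3 libraries and were not tested.

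Complex II, succinate dehydrogenase, is the complex without a mitochondrial gene. In the combination 2 of its 4 members fell, with crenolanib 2 and with HPA-12 1, and none rose. In the same order 56.5%, 28.9% and 23% of all tested genes fell, and 14.8%, 27.4% and 27.7% rose. SDHC, a membrane anchor, had 24.5, 15.6 and 21.3 FPKM in the combination, 30.3, 33.3 and 35.9 with crenolanib, 52.8, 49.5 and 51.1 with HPA-12 and 64.2, 61.2 and 62.6 with DMSO. The 4 groups did not overlap, with falls of 1.59 ± 0.13 (adjusted p = 4.5e-07) and 0.90 (1.1e-04) and a value of −0.29 with HPA-12 that did not pass (0.082). SDHB, the iron-sulphur subunit, averaged 24.1 ± 2.89, 28.1 ± 1.16, 32.4 ± 1.78 and 47.7 ± 4.66 FPKM in the combination, crenolanib, HPA-12 and DMSO libraries (SD, n = 3 each), falling by 0.96, 0.74 and 0.54. In the combination the value of SDHB was −0.28 with median-ratio factors (0.024) and −0.18 at equal upper quartiles, where it did not pass (0.14). SDHC kept its fall there at −0.92 and −0.82. SDHA, the flavoprotein that oxidises succinate, was low at 0.428, 1.22, 1.39 and 0.674 FPKM in the same order, and its values of −0.27, 0.40 and 0.52 did not pass (0.25, 0.11 and 0.051).

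In complex III 1 of 7 nuclear members rose and 4 fell in each comparison with DMSO, with medians of −0.54, −0.48 and −0.37. The all-gene shares raised and lowered were 14.8% and 56.5% in the combination, 27.4% and 28.9% with crenolanib, and 27.7% and 23% with HPA-12. The falls in the combination were thus near that share. In the combination the count was 2 and 3 under median-ratio (27.2% and 33.9% of all tested genes), upper-quartile (29.6% and 30.6%) and non-mitochondrial fragments scaling (22.2% and 41.4%). Under these scalings UQCRH, the hinge subunit, stood at 0.62, 0.73 and 0.40 and passed. UQCRC2, a core subunit that fell as deposited, did not pass there. UQCRB, a small subunit near the quinone site, rose with every treatment: it had 10.8, 9.78 and 11.97 FPKM in the combination, 10.3, 9.97 and 10.9 with crenolanib, 7.53, 9.26 and 9.16 with HPA-12 and 6.17, 6.17 and 6.16 with DMSO. All 9 treated libraries lay above the DMSO libraries, which were nearly equal, and the rises were 0.72 ± 0.11 (adjusted p = 8.1e-05), 0.67 (2.7e-04) and 0.42 (0.0064), kept under every scaling. UQCRC1, a core subunit facing the matrix, had 34.8, 31.2 and 39.8 FPKM in the combination, 50.3, 55.2 and 51.6 with crenolanib, 77.2, 72.5 and 75.8 with HPA-12 and 128, 127 and 134 with DMSO. The 4 groups were fully separated and the falls were 1.85 ± 0.08 (2.1e-09), 1.29 (1.4e-07) and 0.78 (9.5e-06). CYC1, the cytochrome c1 that hands electrons to cytochrome c, had 55.8, 61.5 and 49.9 FPKM in the combination, 53.4, 57.5 and 58.2 with crenolanib, 53.1, 54.6 and 54.3 with HPA-12 and 125, 114 and 126 with DMSO. As deposited, the treated groups overlapped one another well below DMSO, with falls of 1.11 ± 0.08 (9.8e-08), 1.09 (3.5e-07) and 1.15 (2.5e-07). With median-ratio factors the values were −0.43, −1.08 and −1.18, and at equal upper quartiles −0.32, −0.93 and −1.10, all past the threshold, so the equal size of the falls belongs to the deposited scale.

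Cytochrome c itself set HPA-12 apart. CYCS had 20.8, 17.8 and 20.04 FPKM in the combination, 18.0, 19.4 and 18.3 with crenolanib, 5.75, 7.63 and 7.35 with HPA-12 and 22.6, 21.9 and 20.4 with DMSO. The HPA-12 libraries lay wholly below the other 9, a fall of 1.52 ± 0.11 relative to DMSO (limma adjusted p = 4e-07), while the values of −0.14 in the combination (0.26) and −0.21 with crenolanib (0.11) did not pass as deposited. In the combination the value was 0.53 under median-ratio, 0.63 under upper-quartile and 0.32 under non-mitochondrial fragments scaling. CYCS has 40 named pseudogenes in the annotation, so that part of its reads may be assigned elsewhere.

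In nuclear complex IV 2 of 10 members rose and 4 fell in the combination, beside 14.8% and 56.5% of all tested genes. None rose and 5 fell with crenolanib (27.4% and 28.9%), and none rose and 6 fell with HPA-12 (27.7% and 23%). The combination count turned to 6 and 1 with median-ratio factors (27.2% and 33.9%), 7 and 1 at equal upper quartiles (29.6% and 30.6%) and 5 and 1 at equal non-mitochondrial fragments (22.2% and 41.4%). Its median in the combination was 0.22, the highest among the nuclear parts of the 5 complexes as deposited, beside −0.29 and −0.36 with crenolanib and HPA-12. COX7C, a small subunit found in all tissues, had 79.9, 72.0 and 105 FPKM in the combination, 44.2, 53.2 and 43.7 with crenolanib, 43.9, 45.2 and 47.7 with HPA-12 and 52.4, 47.9 and 57.6 with DMSO. The combination lay above all other libraries and rose by 0.68 ± 0.13 (adjusted p = 5.2e-04), and the values with crenolanib (−0.16) and HPA-12 (−0.20) did not pass. COX5A, a subunit on the matrix side, had 65.5, 44.0 and 49.2 FPKM in the combination, 58.2, 58.5 and 65.3 with crenolanib, 44.96, 43.8 and 52.3 with HPA-12 and 114, 124 and 135 with DMSO. Every treated library lay below every DMSO library, with falls of 1.23 ± 0.13 (4.1e-06), 1.02 (4.4e-05) and 1.38 (4.3e-06). With median-ratio factors its combination value was −0.55 and still passed (0.0035). COX5B fell by 0.78 in the combination, 1.04 with crenolanib and 1.05 with HPA-12, but its combination value was 0.015 at equal upper quartiles. COX8A averaged 9.20 ± 6.63, 5.45 ± 4.10, 3.76 ± 0.958 and 3.69 ± 0.996 FPKM in the combination, crenolanib, HPA-12 and DMSO libraries (SD, n = 3 each), and its value of 0.95 ± 0.46 in the combination did not pass as deposited (0.082). It passed at 1.58 under median-ratio (0.013), 1.68 under upper-quartile (0.010) and 1.38 under non-mitochondrial fragments scaling (0.024). COX6C had values of 0.27, 0.31 and −0.24, none of which passed as deposited. Its combination value passed at 0.90 (0.0016), 1.00 (8.8e-04) and 0.70 (0.0070) under the same 3 scalings.

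In nuclear complex V none of the 8 members rose relative to DMSO. As deposited all 8 fell in the combination, where 56.5% of all tested genes fell, and 7 fell with crenolanib and with HPA-12, where 28.9% and 23% did, with medians of −1.03, −0.62 and −0.66. In the combination 4 of the 8 fell with median-ratio factors or equal upper quartiles, beside 33.9% and 30.6% of all tested genes, and 5 fell at equal non-mitochondrial fragments, beside 41.4%. ATP5F1B, the catalytic beta subunit and the highest nuclear member per length, had 217, 171 and 172 FPKM in the combination, 284, 293 and 297 with crenolanib, 301, 281 and 299 with HPA-12 and 649, 644 and 657 with DMSO. All treated libraries lay below DMSO, and crenolanib and HPA-12 overlapped, with falls of 1.80 ± 0.08 (adjusted p = 1.8e-09), 1.16 (2.3e-07) and 1.14 (2.8e-07). ATP5MC1, one of 3 genes for the membrane ring subunit c, had 8.26, 19.2 and 20.9 FPKM in the combination, 9.46, 6.63 and 8.06 with crenolanib, 5.81, 4.25 and 5.06 with HPA-12 and 30.5, 28.8 and 34.9 with DMSO. Its falls of 1.85 ± 0.27 with crenolanib (1.3e-04) and 2.43 with HPA-12 (1.8e-05) were larger than its fall of 1.01 in the combination (0.0052), which did not pass under median-ratio, upper-quartile or non-mitochondrial fragments scaling.

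Of the remaining complex V members, ATP5MC3, another gene for the ring subunit c, fell by 1.05, 1.14 and 1.34 in the combination, with crenolanib and with HPA-12, the first being −0.39 with median-ratio factors and still past the threshold. ATP5PB, of the stalk that holds the catalytic head, fell by 0.57 in the combination as deposited, but stood at 0.11 with median-ratio factors and 0.21 at equal upper quartiles. ATP5PO, which joins that stalk to the head, was low, with 0.717, 0 and 0 FPKM in the combination, 0.846, 1.30 and 1.38 with crenolanib, 1.85, 2.15 and 1.90 with HPA-12 and 1.40, 1.14 and 2.24 with DMSO. It fell by 1.09 ± 0.23 in the combination (adjusted p = 0.0010) and had values of −0.24 with crenolanib (0.39) and 0.21 with HPA-12 (0.46). The 2 zeros come from the group with the lowest estimated depths and do not show that the transcript is absent.

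**Figure D3:**
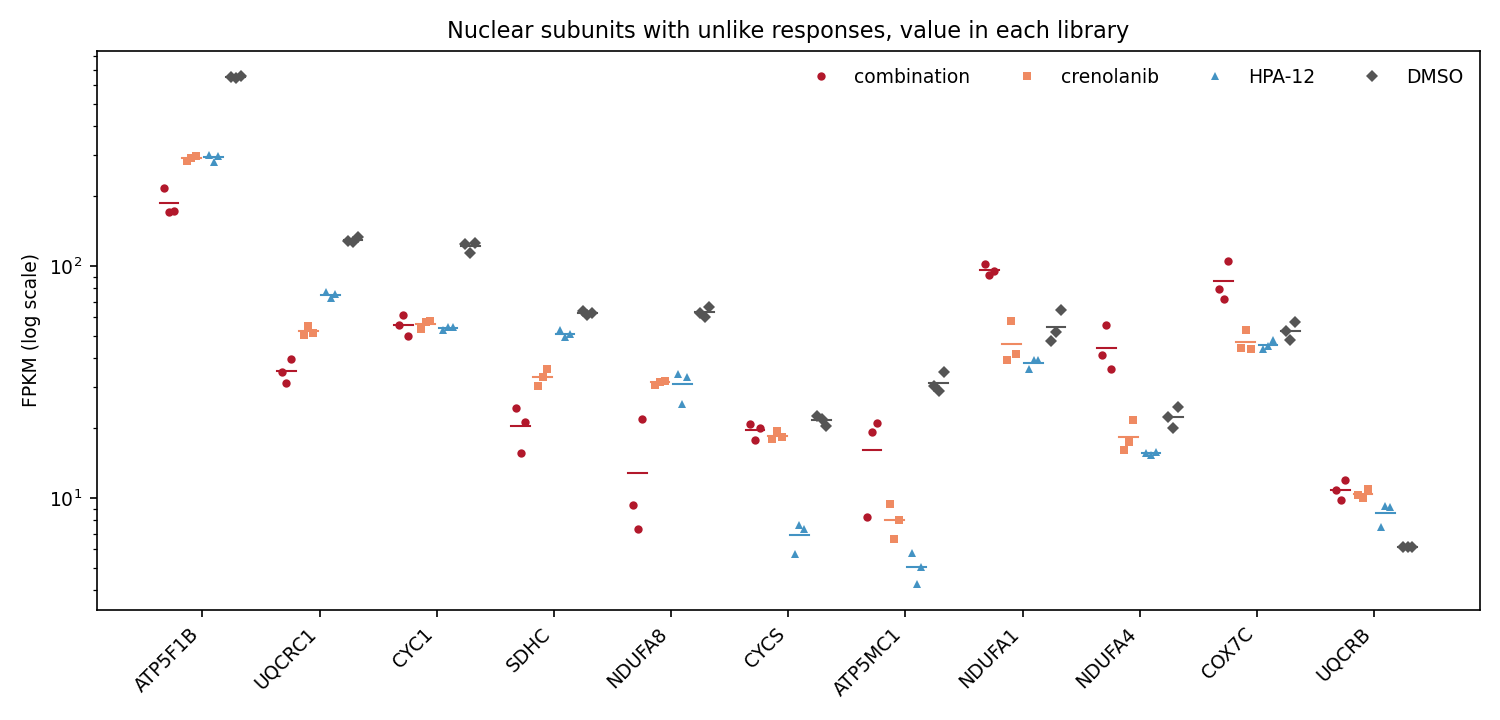
FPKM (log axis) of nuclear members named in the text in each of the 12 libraries, with combination, crenolanib, HPA-12 and DMSO from left to right and a bar at the mean of 3 libraries. NDUFA1, NDUFA4 and COX7C stand highest in the combination, UQCRC1 steps up through the 4 groups to DMSO, and CYCS is lowest with HPA-12.

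Overlap with other genes and named pseudogenes were counted for nuclear members at low and at higher levels. Of the 11 nuclear members with a mean under 5 FPKM over the 12 libraries, 9 had more than 10% of their exon bases overlapped by another gene and 7 had a named pseudogene, so that all 11 had one or the other. Of the 35 members at 5 FPKM or more, the numbers were 8, 22 and 28. Whether shared sequence bears on the level was not tested, and the levels of members with such overlaps or copies are uncertain in both sets.

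The products of both genomes were then set side by side within each library. The genome gap is the mean log2(FPKM + 1) of the mitochondrial members minus that of the nuclear members of the same complex. It is given without a test. Over all members the gap was 9.85 to 9.97 in the combination, 8.36 to 8.41 with crenolanib, 7.26 to 7.32 with HPA-12 and 6.815 to 6.816 with DMSO. The groups did not overlap, and the mean gap exceeded that of DMSO by 3.11 on the log2 scale (8.64-fold) in the combination, by 1.58 (2.99-fold) with crenolanib and by 0.48 (1.39-fold) with HPA-12. As deposited, the mitochondrial mean was 13.77, 12.36, 11.21 and 11.21 in the combination, crenolanib, HPA-12 and DMSO libraries, and the nuclear mean was 3.84, 3.96, 3.92 and 4.39. With HPA-12 the mitochondrial means thus stood at the same value as DMSO, and the difference in the gap lay in the nuclear mean. The terms moved with the scaling far more than the gap did. With median-ratio factors the combination stood above DMSO by 3.26 in the mitochondrial mean and by 0.029 in the nuclear mean, and at equal upper quartiles by 3.37 and 0.12, so the lower nuclear mean in the combination belongs to the deposited, FPKM sum and fragments scales (−0.55, −0.43 and −0.16). With crenolanib the nuclear mean minus that of DMSO was −0.43 to −0.29 over the 5 scalings, and with HPA-12 −0.50 to −0.38.

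By complex, the gap exceeded that of DMSO most in complex V, where it averaged 7.25 ± 0.29 in the combination, 5.44 ± 0.09 with crenolanib, 4.25 ± 0.12 with HPA-12 and 3.42 ± 0.04 with DMSO (SD, n = 3 each), a difference of 3.83 (14.2-fold), 2.02 (4.05-fold) and 0.82 (1.77-fold). Complex III, with MT-CYB as its one mitochondrial gene, gave differences of 3.52, 1.58 and 0.58. Complex I gave 3.10, 1.58 and 0.34, although the last was −0.37 when medians over members replaced means. Complex IV gave the smallest difference in the combination and with crenolanib, 2.38 and 1.29, and 0.44 with HPA-12. In each of the 4 complexes every treated library lay above every DMSO library. The order of the complexes describes these members and was not tested.

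**Figure D4:**
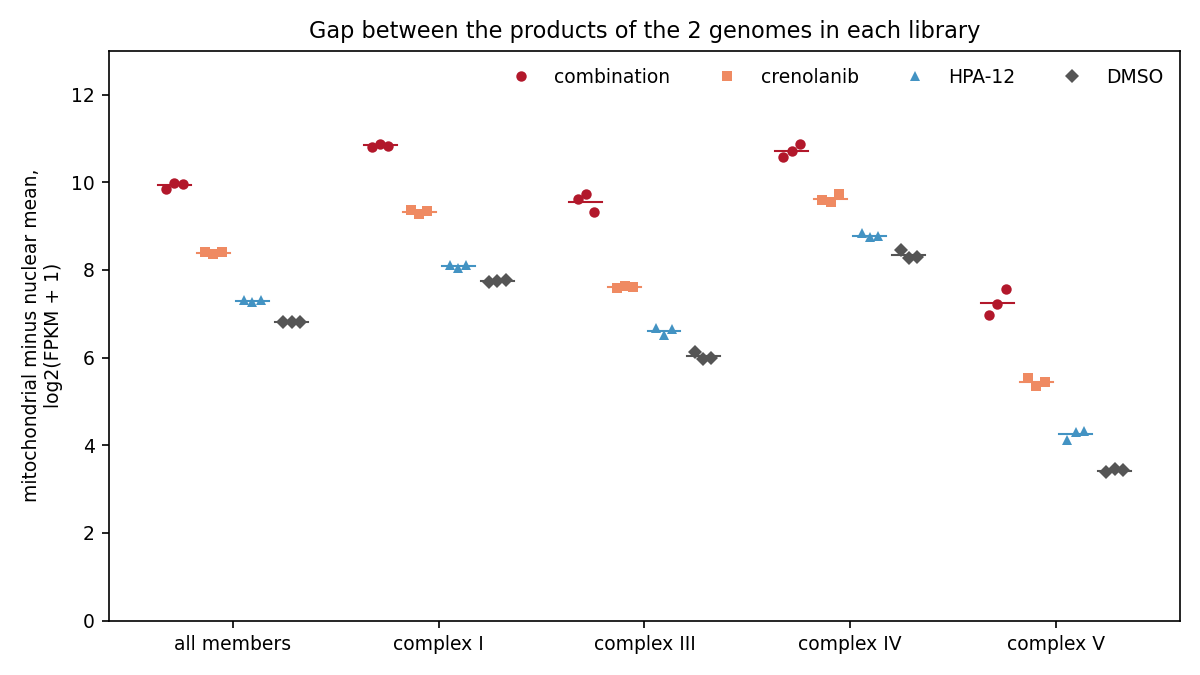
Genome gap (mean log2(FPKM + 1) of mitochondrial minus nuclear members, log2 units) per library for all members and for complexes I, III, IV and V, with combination, crenolanib, HPA-12 and DMSO from left to right and a bar at the mean of 3 libraries. In every panel the combination stands highest, crenolanib second, HPA-12 next and DMSO lowest.

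Relative to crenolanib alone, the combination raised all 13 mitochondrial members by 0.74 to 2.01 (median 1.56), where 8.78% of all tested genes were raised and 61.2% lowered. Of the nuclear members 9 rose and 15 fell, 20.9% and 34.9%, and the all-gene median was −0.63. The 9 raised were NDUFA1, NDUFA4, NDUFS8, UQCRH, COX4I1, COX6B1, COX7A2, COX7C and ATP5MC1, and they kept the call under every scaling. Of the 15 lowered 1 did, UQCRFS1, the Rieske iron-sulphur protein of complex III, which fell by 1.07. The split turned to 23 raised and 1 lowered with median-ratio factors (19.6% and 26.2% of all tested genes), 21 and 3 at equal upper quartiles (18.8% and 28.3%) and 15 and 5 at equal non-mitochondrial fragments (14.1% and 41.6%). Relative to HPA-12 alone, the combination raised all 13 mitochondrial members by 1.95 to 3.13 (median 2.60), beside 14.5% raised and 57.8% lowered among all tested genes. Here too 9 nuclear members rose and 15 fell, the 9 being NDUFA1, NDUFA4, UQCRB, CYCS, COX6C, COX7A2, COX7C, ATP5MC1 and ATP5MC3, again kept under every scaling. Here 25 rose and 3 fell with median-ratio factors (27.5% and 33.2%) or at equal upper quartiles (27.9% and 32.5%), and 19 and 7 at equal non-mitochondrial fragments (22% and 41.9%). SDHC, UQCRC1 and ATP5PO kept a fall relative to HPA-12 under every scaling. The comparisons with crenolanib, HPA-12 and DMSO share the combination libraries.

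The interaction term asks whether the combination differs from the sum of the single treatments on the log2 scale. It was above 0 and passed for all 13 mitochondrial members, from 0.98 for MT-ND3 to 1.93 for MT-CO2 with a median of 1.34, where 15.4% of all tested genes passed above 0 and 50% below. MT-CO2 thus stood 2.63 above DMSO in the combination, against 0.91 with crenolanib and −0.21 with HPA-12. Of the nuclear members 19 passed above 0 and 6 below, 44.2% and 14%, with a median of 0.47 beside −0.65 over all genes. CYC1, which as deposited stood at nearly the same level in all 3 treated groups, gave 1.13 ± 0.11 (limma adjusted p = 3e-06), and 1.84 with median-ratio factors. The term was 3.26 ± 0.38 for ATP5MC1 (1.7e-05) and 1.59 ± 0.15 for CYCS (3e-06), whose combination levels lay above those of HPA-12 alone by 1.42 (5.4e-04) and 1.38 (2.9e-07). All 7 nuclear members of complex IV that passed did so above 0. Of the 6 below 0, SDHA (−1.19 ± 0.29, 0.0033) kept its call under every scaling. The counts above and below 0 became 28 and 1 with median-ratio factors (25.3% and 29.4%), 26 and 1 at equal upper quartiles (22.9% and 32.9%) and 23 and 2 at equal non-mitochondrial fragments (20.1% and 39%). As deposited, the count below 0 was 3 without crenolanib replicate 1 or 3 or HPA-12 replicate 3, and 2 without crenolanib replicate 2, HPA-12 replicate 2 or any 1 DMSO library.

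**Figure D5:**
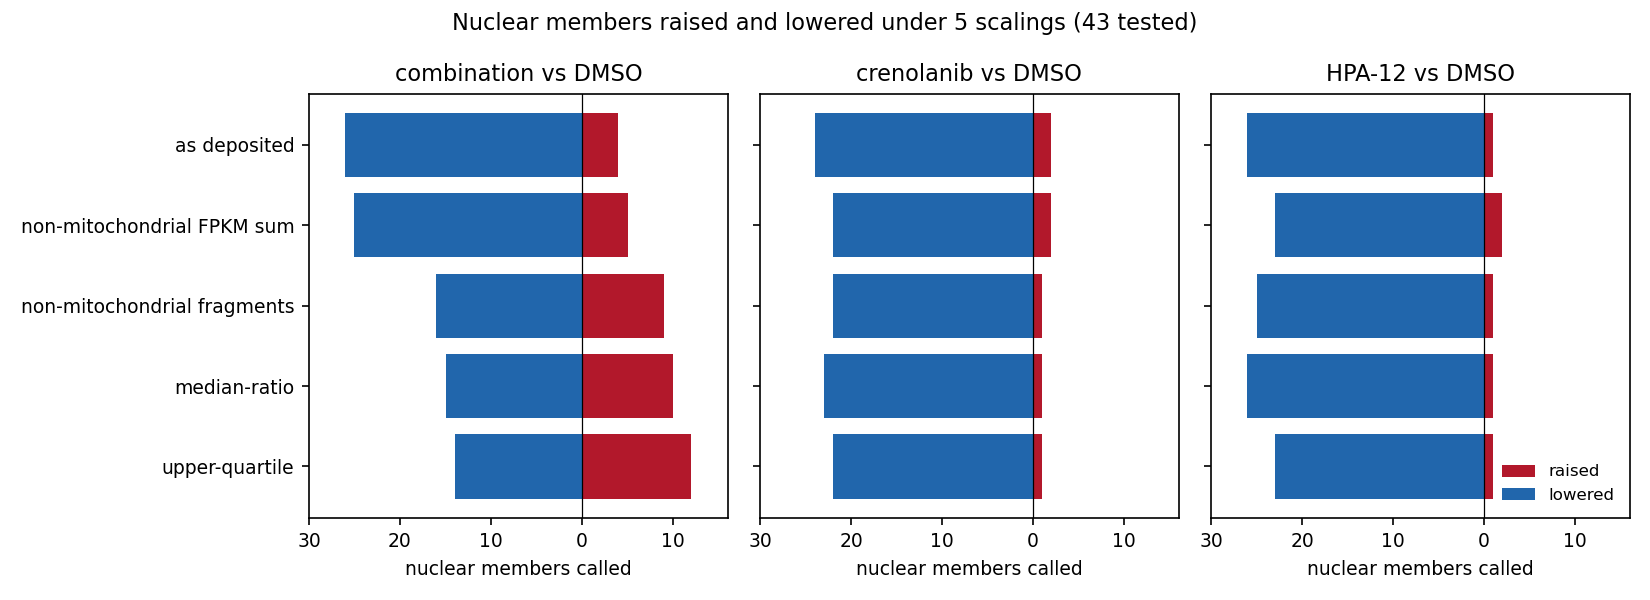
Number of the 43 tested nuclear members raised (above 0) and lowered (below 0) in each comparison with DMSO under the deposited scale and 4 other scalings, at a Benjamini-Hochberg adjusted p of 0.05. Counts against DMSO with crenolanib and HPA-12 change little, whereas in the combination 4 raised and 26 lowered as deposited become 12 and 14 under upper-quartile scaling.

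Related genes were read from lists of their own, beside the same all-gene shares (14.8% raised and 56.5% lowered in the combination, 27.4% and 28.9% with crenolanib, 27.7% and 23% with HPA-12). Under median-ratio scaling the all-gene shares in the combination were 27.2% and 33.9%. Of 15 tested genes for mitochondrial DNA transcription and replication, none rose and 10 fell in the combination, 3 rose and 7 fell with crenolanib, and 1 rose and 7 fell with HPA-12. Under median-ratio scaling the combination count was 2 and 5. POLRMT, the mitochondrial RNA polymerase, averaged 9.39 ± 3.32 FPKM in the combination, 21.6 ± 0.439 with crenolanib, 21.7 ± 0.623 with HPA-12 and 51.8 ± 2.29 with DMSO (SD, n = 3 each), falling by 2.40, 1.23 and 1.22. TWNK, the replicative helicase, averaged 4.68 ± 0.864, 8.85 ± 1.53, 4.34 ± 0.109 and 32.6 ± 1.63 FPKM in the same order and fell by 2.57, 1.78 and 2.65. TOP1MT, a mitochondrial topoisomerase, fell by 0.92 with crenolanib and 0.93 with HPA-12, and its fall of 0.64 in the combination turned to 0.02 under median-ratio scaling. MGME1, a mitochondrial nuclease, rose by 0.52 with crenolanib and 1.03 with HPA-12. Of 19 tested genes for mitochondrial RNA processing, stability and decay, none rose and 17 fell in the combination, 1 rose and 6 fell with crenolanib, and 1 rose and 13 fell with HPA-12, and the combination count was 1 and 6 under median-ratio scaling. ELAC2, which cuts the 3′ end of transfer RNAs out of the precursor, fell by 1.99, 1.44 and 1.34, and SLIRP, which stabilises mitochondrial messenger RNA with LRPPRC, fell by 1.60 with HPA-12.

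Among 33 other nuclear subunit genes tested, 3 rose and 16 fell in the combination, 2 rose and 16 fell with crenolanib, and 2 rose and 11 fell with HPA-12. The combination count turned to 10 and 6 with median-ratio factors. For the 43 nuclear members tested above, the deposited counts were 4 and 26, 2 and 24, and 1 and 26 in the same order of treatments. A smaller share of these other subunit genes thus fell with each treatment than of the members, most clearly with HPA-12. The excess of falls over all tested genes therefore depends on which subunits were chosen. ATP5F1E, the epsilon subunit of complex V, averaged 40.4 ± 3.41 FPKM in the combination, 16.1 ± 0.659 with crenolanib, 8.86 ± 1.49 with HPA-12 and 8.63 ± 1.41 with DMSO (SD, n = 3 each). It rose by 2.11 ± 0.14 (limma adjusted p = 6.1e-08) and 0.84, with 0.03 under HPA-12, and so moved with the mitochondrial members and not with the 8 nuclear complex V members above. NDUFS6, a complex I subunit, fell by 1.64 with HPA-12. ATP5IF1, the inhibitor of complex V hydrolysis, rose by 0.83 in the combination and 0.80 with HPA-12, as 1 of 3 tested genes on a list of tissue isoforms and this inhibitor. Of 41 assembly factors, 1 rose and 25 fell, 3 rose and 17 fell, and 2 rose and 15 fell in the combination, with crenolanib and with HPA-12, and the first of these was 5 and 16 under median-ratio scaling. ACAD9, needed to assemble complex I, fell by 2.14 in the combination. Of 16 tricarboxylic acid cycle enzymes, 15, 9 and 11 fell and none rose as deposited (1 rose and 8 fell in the combination under median-ratio scaling), with citrate synthase (CS) falling by 2.06 and OGDH, the 2-oxoglutarate dehydrogenase, by 2.15 in the combination. Of 9 biogenesis regulators, none rose and 6 fell in the combination, 4 rose and 4 fell with crenolanib, and 2 rose and 4 fell with HPA-12 (3 and 6 in the combination under median-ratio scaling). MYC averaged 17.8 ± 0.284, 34.8 ± 3.29, 6.88 ± 0.232 and 158 ± 2.43 FPKM in the combination, crenolanib, HPA-12 and DMSO libraries (SD, n = 3 each), with falls of 3.08, 2.15 and 4.33. ESRRA, a nuclear receptor for oxidative metabolism genes, fell by 2.23 in the combination. Of the factors introduced at the start, NRF1 averaged 2.36, 7.81, 8.26 and 6.44 FPKM in the same order of groups as MYC. GABPA, of the factor GABP, averaged 3.75, 11.99, 5.32 and 3.09 FPKM, and YY1 averaged 10.2, 26.5, 24.98 and 21.1 FPKM. These means stood above DMSO with crenolanib and with HPA-12, and those of NRF1 and YY1 stood below DMSO in the combination. Whether these levels bear on the nuclear members was not tested.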

How the data were processed

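Total RNA of 12 libraries was represented by one table of FPKM values per gene, deposited by the authors and named FPKM per the file headers. Aligner, counter, genome build and gene lengths are not given in these sources. Of 20036 gene identifiers, 20011 matched a symbol. The members and lists were chosen with earlier results of these data known.

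FPKM were converted to log2(FPKM + 1), a scale that understates changes of low genes. Genes at 1 FPKM or more in at least 3 of 12 libraries were kept (11149 genes, 56 of the 59 members). One limma model (limma 3.58.1, statmod 1.5.0, R 4.3.3) with 4 groups and trended, robust empirical Bayes moderation gave log2 fold changes, standard errors and two-sided p-values, adjusted by Benjamini-Hochberg over all tested genes in each of 6 comparisons at 0.05. A single estimate of the spread of each gene was shared by the 4 groups. Where the combination libraries varied more than the others, SE and p-values of its comparisons can understate that spread. The procedure was tested on simulated data. No p-value was computed for a score or list of members.

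Named nuclear members were, per complex, those with the largest and smallest log2 fold change against DMSO and those called opposite to most. For each list, named genes came from the 3 with the smallest p. ATP5MC3, UQCRFS1, the regulators NRF1, GABPA and YY1, and the members listed for comparisons between treatments were named after their values were seen.

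Other scalings were tried: equal non-mitochondrial FPKM sums, median-ratio factors over 10072 genes, upper quartile, and, added after seeing the data, equal non-mitochondrial fragments, using GENCODE 29 gene lengths (19852 identifiers matched). Depth was estimated as the fragment total at which most low FPKM values became whole numbers with GENCODE 29 lengths. At that total 30.4% to 39.4% of low values were whole (within 0.01), so whole counts could not be recovered, count models were not used, and depths are approximate. Replicate numbers were not used to pair the libraries in the main model, and a hint of pairing is described at the end.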

Additional observations from a re-analysis of the deposited data

Results flagged for a closer look

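A test of the difference between contrasts, the effect of crenolanib in the presence of HPA-12 against its effect without it, passed for the following results (limma, Benjamini-Hochberg adjusted p at most 0.05). It passed above 0 for 13 of 13 mitochondrial members, and for 19 of the 43 tested nuclear members above 0 and 6 below, beside 15.4% and 50% of all tested genes. In complex I the term was 1.25 for MT-ND1, 1.55 for MT-ND2, 0.98 for MT-ND3, 1.66 for MT-ND4, 1.17 for MT-ND4L, 1.31 for MT-ND5 and 1.10 for MT-ND6. MT-CYB of complex III had 1.34. Complex IV gave 1.18 for MT-CO1, 1.93 for MT-CO2 and 1.60 for MT-CO3, and complex V gave 1.77 for MT-ATP6 and 1.42 for MT-ATP8. The nuclear genes CYCS (1.59) and ATP5MC1 (3.26) were flagged in the same way. For ATP5MC1 the combination libraries were spread from 8.26 to 20.9 FPKM, so that 1 of 3 lay within the range of the crenolanib libraries.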

How the results depend on the processing

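Calls for mitochondrial members changed least: 13 were raised in the combination, with crenolanib and in the interaction under every alternative run. With HPA-12, however, 4 raised became 7 under the non-mitochondrial FPKM sum, where 32% of all tested genes were raised. Nuclear counts in comparisons with the combination moved with the scaling (median-ratio, upper-quartile and non-mitochondrial fragments, the last chosen after seeing the data). Against DMSO 10, 12 and 9 rose and 15, 14 and 16 fell, against crenolanib 23, 21 and 15 rose and 1, 3 and 5 fell, against HPA-12 25, 25 and 19 rose and 3, 3 and 7 fell, and in the interaction 1, 1 and 2 fell. A scaling factor multiplies all FPKM values of a library, and on the log2(FPKM + 1) scale the shift is smaller for low values. The cause of the moved counts was not tested. With crenolanib 1 nuclear member rose under those scalings, with a pseudocount of 0.1, no filter or a mean of at least 5 FPKM, and 5 rose with library weights, without the combination libraries or with only the groups compared. With HPA-12 2, 3, 2 and 2 rose under the FPKM sum, library weights, without the combination libraries and with only the groups compared.

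Signs turned in the combination against DMSO under median-ratio, upper-quartile and fragments scaling for NDUFA10 (0.27, 0.37, 0.076), UQCRH (0.62, 0.73, 0.40), CYCS (0.53, 0.63, 0.32), COX4I1 (0.31, 0.42, 0.092) and COX6B1 (0.23, 0.33, 0.0083), under the first 2 for UQCRC2 (0.13, 0.24) and ATP5PB (0.11, 0.21), and under upper-quartile scaling for NDUFS8 (0.089), COX5B (0.015) and ATP5F1D (0.083).

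The difference in genome gap from DMSO kept its sign over all members. In the combination it was 3.28 with a pseudocount of 0.1, 3.23, 3.24 and 3.19 under the 3 scalings, 3.70 by medians, 3.29 without MT-ND4L, MT-ATP8 and MT-ND6 and 3.19 with nuclear members of at least 5 FPKM. The last 3 settings gave 2.07, 1.62 and 1.73 with crenolanib and 1.28, 0.56 and 0.64 with HPA-12, where complex I gave −0.37 by medians. Against crenolanib the combination gave 1.70 (pseudocount 0.1), 1.65 (median-ratio), 1.64 (upper-quartile), 1.63 (medians) and 1.66 (without the 3 genes). Against HPA-12 it gave 2.80, 2.75, 2.76, 2.71 (fragments), 2.41 (medians), 2.73 (without the 3 genes) and 2.55 (at least 5 FPKM).

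Leaving out 1 library gave 4 to 7 nuclear members raised in the combination, 1 to 4 with crenolanib and 1 to 2 with HPA-12, 2 to 7 lowered in the interaction, and gaps of 3.09 to 3.15, 1.57 to 1.60 and 0.47 to 0.50 over DMSO. Deviations of same-numbered libraries correlated at −0.03 to 0.07 (mean 0.014, 14 of 18 pairs above 0) and those of other pairs at −0.10 to 0.06 (mean −0.0071, 10 of 36 above 0). No pair was over 0.1, the level set for pairing, but 8 of 12 libraries correlated best with their own number, a hint from the data and not from the design. With the replicate block, nuclear members raised and lowered were 5 and 26 in the combination, 2 and 23 with crenolanib, 1 and 25 with HPA-12, and 19 and 6 in the interaction. All-gene shares were computed only for the deposited scale and the 4 other scalings, so counts from other runs stand without them. Count-based alternatives were not run, since the values are FPKM. Low depth in the combination limits genes near 1 FPKM.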
